A study of Mus musculus with 12 samples.

Results

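Chondrogenic regulators and joint genes are described here as a set of 10: Sox9, Sox5, Sox6, Gdf5, Gdf6, Bmpr1b, Nkx3-2, Pth1r, Runx3 and Erg. They were chosen by symbol from the forelimb count data, and were 10 of 51826 gene identifiers. The rule held no measured value, but the set was chosen with earlier results of these data known. All 10 passed the filter on low counts that left 19987 genes for testing. RNA sequencing was done on mouse forelimbs at E12.5, in 2 groups of 2 libraries. The first group was wild type (WT), and the second, Prx-cKO, had Impdh2 deleted in limb mesenchymal progenitors. Impdh2 encodes an enzyme that makes guanine nucleotides. Prx names the driver of the Cre recombinase, which acts in limb mesenchyme and the cartilage, bone and connective tissue that come from it, but not in blood, vessels, muscle precursors or the surface ectoderm. The labels do not say which alleles the WT embryos carried, their strain, or how many embryos made up a library. The series also held 8 libraries of osteoclast cultures from bone marrow, WT or LysM-cKO, in which the deletion is in myeloid cells, which were used for levels only. These fall into 4 groups of 2, titled R40D3 or R0D3 for each genotype, names that the labels leave unexplained.

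Limb cartilage starts when mesenchymal cells condense and switch on Sox9, a transcription factor that opens cartilage genes together with its partners Sox5 and Sox6. Signals of the BMP family act through receptors such as Bmpr1b to drive this step, and the related ligands Gdf5 and Gdf6 mark the stripes of flattened cells, the interzones, where joints will form. Nkx3-2 keeps young chondrocytes immature, Pth1r receives the hormone-like signal PTHrP that delays their maturation, Runx3 acts with Runx2 in that maturation, and Erg is an ETS factor of both endothelium and the future articular surface.

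The forelimb libraries held 28892215 to 69466572 counts. The shallowest was Prx-cKO replicate 1 and the deepest WT replicate 2. Replicates of a group differed by far more than sampling noise, as the chi-square was 131 times its degrees of freedom in WT and 44.6 times in Prx-cKO. By Xist and Ddx3y counts, each genotype held 1 female-type and 1 male-type library. Impdh2 itself, the targeted gene, was at 260 and 272 CPM in WT against 170 and 199 CPM in Prx-cKO, or 69.3% of the WT mean, where CPM is counts per 1000000 of the scaled library. Its log2 fold change was -0.53 (edgeR, SE 0.16, adjusted p = 0.443). The forelimb marker Tbx5 was at 160 and 199.5 CPM in WT against 97.0 and 91.2 CPM in Prx-cKO. Of the 2 hindlimb identity genes, Tbx4 was at 15.3 and 14.4 CPM in WT against 10.8 and 8.65 CPM in Prx-cKO. The other, Pitx1, went the other way, at 3 and 2.03 CPM in WT against 5.15 and 3.35 CPM in Prx-cKO.

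Across the 19987 genes tested, edgeR's quasi-likelihood test called 0 genes, 0%, at an adjusted p under 0.05, and the smallest adjusted p was 0.118. None of the 10 members was called. At an unadjusted p under 0.05, 921 genes (4.61%) were lower and 1174 (5.87%) higher in Prx-cKO. Of the members, 8 of 10 were lower at that level and 0 of 10 higher. Both Prx-cKO libraries lay below both WT libraries for 9 of 10 members, against 21.0% of all genes tested. They lay above for 1 member, Pth1r, against 22.2% of all genes. The median log2 fold change was -1.25 over the members and -0.03 over all genes. As the set was chosen with earlier results known, these shares describe it and do not test it. An exact permutation test of 2 libraries against 2 cannot give a two-sided p below 0.333, so single genes rested on the fit across all genes. A second tool, DESeq2, called 6 members as lower (Sox9, Sox5, Sox6, Gdf5, Nkx3-2 and Erg), where it called 0.752% of its genes as lower. The tools thus differ on whether these 6 passed. The members' differences are therefore given as values. In whole tissue, fewer cells of a type and less RNA per cell cannot be told apart.

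**Figure D1:**
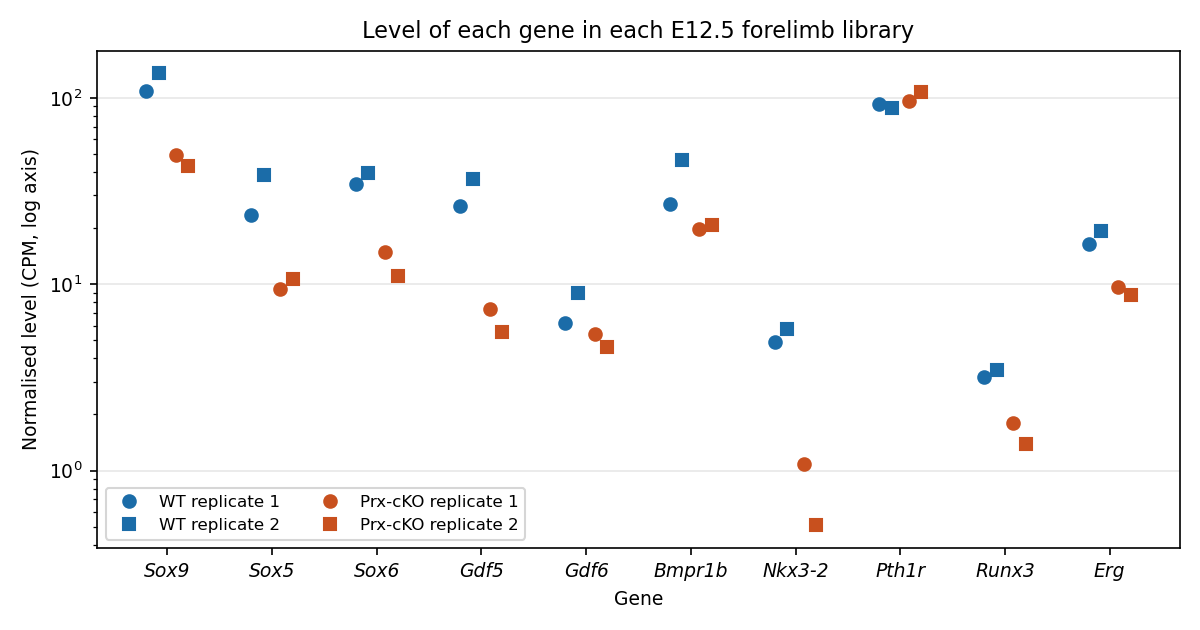
Normalised level (CPM, log axis) of the 10 genes in each of the 4 forelimb libraries; blue points are WT and orange points Prx-cKO, with circles for replicate 1 and squares for replicate 2. The Prx-cKO points lie below the WT points for 9 genes, and for Pth1r they lie above them.

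The stretches before the start sites are shown first, because the SOX factors among the members bind a short core that can be read in them. RefSeq promoter windows (GRCm38.p6, 250 bases before to 50 after a start) matched 7 of the 10 members by symbol, with 19 windows in all. The SOX cores, ACAATG and ACAAAG, were searched on both strands. No match of one overlapped a match of the other in the member windows. The 250 bases before 1 start are printed for Sox5 and Bmpr1b, which were lower in both Prx-cKO libraries, for Erg, which was also lower and whose first window held no core, and for Pth1r, which was not lower. All lie on the minus strand of the genome and are written in the direction of the gene, with SOX cores in capitals, and none of these bases is exonic in GENCODE M21. The Erg and Pth1r starts are at the upstream ends of their annotated genes. Those of Sox5 and Bmpr1b lie inside the annotated genes, which reach upstream to chr6:144781977 and chr3:142169425.
Sox5, chr6:143947107-143947356: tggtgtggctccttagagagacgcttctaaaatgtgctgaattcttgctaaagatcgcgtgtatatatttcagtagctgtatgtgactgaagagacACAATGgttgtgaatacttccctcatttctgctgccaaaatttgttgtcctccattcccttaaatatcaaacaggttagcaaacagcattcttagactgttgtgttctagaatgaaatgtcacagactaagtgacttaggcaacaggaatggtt
Bmpr1b, chr3:141982265-141982514: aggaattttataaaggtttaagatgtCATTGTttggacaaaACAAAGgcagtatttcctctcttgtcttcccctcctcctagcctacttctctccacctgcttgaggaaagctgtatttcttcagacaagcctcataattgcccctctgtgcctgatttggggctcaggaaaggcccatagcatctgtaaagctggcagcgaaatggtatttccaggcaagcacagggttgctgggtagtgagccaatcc
Erg, chr16:95586594-95586843: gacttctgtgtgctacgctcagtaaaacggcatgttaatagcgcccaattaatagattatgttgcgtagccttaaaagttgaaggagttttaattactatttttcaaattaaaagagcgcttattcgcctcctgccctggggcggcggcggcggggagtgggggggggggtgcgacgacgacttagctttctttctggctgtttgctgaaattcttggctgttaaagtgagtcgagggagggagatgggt
Pth1r, chr9:110747146-110747395: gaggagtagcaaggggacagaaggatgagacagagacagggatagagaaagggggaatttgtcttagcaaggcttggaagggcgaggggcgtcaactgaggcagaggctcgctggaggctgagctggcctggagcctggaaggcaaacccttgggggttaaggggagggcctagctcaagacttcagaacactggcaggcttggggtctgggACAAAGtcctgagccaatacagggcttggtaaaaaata
In the Sox5 stretch the core ACAATG begins 154 bases before the start. The Bmpr1b stretch holds both cores within its first 50 bases, ACAATG read on the opposite strand. The Pth1r stretch has ACAAAG 38 bases before the start. Either core was found in 11 of the 19 member windows and in 28.6% of the 32851 windows of the table. Of the 6 Sox6 windows 5, and all 3 Bmpr1b windows, held one, and the window of Nkx3-2 held none. Of the 3 Erg windows the last held 1, ACAATG on the opposite strand 121 bases before the start. The windows are not separate items, since 6 belong to Sox6 and 2 of the Bmpr1b windows overlap and share 1 match. The RUNX core TGTGGT was found in 3 of 19 member windows (16.8% of all windows), with 2 matches in the first Runx3 window, which is upstream of the longer Runx3 form, and 1 match in a Sox6 window overlaps a SOX core. The GLI core ACCACCC was in 0 of 19 (4.61% of all windows). A match describes letters in a window, not a bound site. A core was present at Pth1r, whose level was not lower, and not found in the 1 window of Nkx3-2, whose difference was the largest of the 10. All 250 bases before the start in that Nkx3-2 window are exonic in Nkx3-2 itself. The window thus lies within the annotated gene and does not show the bases upstream of it.

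Sox9, the master regulator of cartilage (ENSMUSG00000000567, chr11:112782224-112787760, plus strand, GRCm38), was at 109 and 135.5 CPM in the WT libraries and at 49.6 and 42.9 CPM in the Prx-cKO libraries. The lowest WT library was thus above the highest Prx-cKO library by a wide margin. The means were 122 ± 18.6 and 46.3 ± 4.76 CPM (SD, n = 2 each), so that 37.8% of the WT level remained. The log2 fold change was -1.41 (edgeR, SE 0.18, adjusted p = 0.32; DESeq2 adjusted p = 3.01e-05). Sox9 was 29th of 19987 genes by unadjusted p in edgeR.

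Sox5 and Sox6 encode the SOXD proteins, which lack an activation domain of their own and help Sox9 at cartilage enhancers. Sox5 (chr6:143828425-144781977, minus strand) was at 23.7 and 38.8 CPM in WT against 9.39 and 10.7 CPM in Prx-cKO, which is 32.1% of the WT mean. The WT libraries differed by 1.64-fold, and still neither overlapped the Prx-cKO pair. Sox6 (chr7:115470872-116038796, minus strand) was at 34.7 and 39.6 CPM in WT against 14.8 and 11.0 CPM in Prx-cKO, 34.8% of WT. The log2 fold changes were -1.64 (edgeR, SE 0.30, adjusted p = 0.34) for Sox5 and -1.53 (edgeR, SE 0.22, adjusted p = 0.332) for Sox6.

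The SOX trio kept nearly the same proportions. Sox5 over Sox9 was 0.217 and 0.286 in WT and 0.189 and 0.249 in Prx-cKO, and Sox6 over Sox9 was 0.318 and 0.293 against 0.299 and 0.257, so both ratios overlapped between the genotypes. The ratio of Sox9 to Col2a1, the main collagen gene of cartilage and a known Sox9 target, also overlapped, at 0.223 and 0.268 in WT and 0.232 and 0.258 in Prx-cKO. Sox6 is also expressed in skeletal muscle and red cells. The skeletal muscle list summed to 397 and 388 CPM in WT and to 1069 and 513 CPM in Prx-cKO, with 11 of 12 genes higher. The erythroid list was split, with 5 of 10 genes on each side, and its summed level overlapped (4791 and 3469 against 4285 and 3650 CPM). Sox6 was lower while neither list was, and their part in the Sox6 value was not tested.

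Gdf5, the ligand that marks the joint interzone (chr2:155941023-155945367, minus strand), was at 26.2 and 36.8 CPM in WT against 7.41 and 5.56 CPM in Prx-cKO. The WT libraries lay far above the Prx-cKO libraries, by at least the whole WT spread. A share of 20.6% of the WT mean remained, with a log2 fold change of -2.29 (edgeR, SE 0.28, adjusted p = 0.32; DESeq2 adjusted p = 8.82e-09). Of its exonic bases, 936 (40.3%) are shared with Gm15557, a gene on the other strand. Gm15557 had 13 and 60 counts in WT and 0 and 0 in Prx-cKO, against 1107 and 2641 Gdf5 counts in WT. How shared reads were assigned is not given in the sources used here.

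Gdf6, the closest relative of Gdf5 among the members, was at 6.19 and 9.03 CPM in WT against 5.39 and 4.62 CPM in Prx-cKO. The groups did not overlap, but the gap between the lower WT and the higher Prx-cKO library was smaller than the gap between the WT libraries. The mean was 65.8% of WT, with a log2 fold change of -0.62 (edgeR, SE 0.31, adjusted p = 0.55). It ran from -0.89 without WT replicate 1 to -0.30 without WT replicate 2. The Gdf5 to Gdf6 ratio of CPM was 4.23 and 4.08 in WT and 1.37 and 1.2 in Prx-cKO. It was close between replicates and well apart between the genotypes. Gdf7, another ligand of the subfamily, was scarce, at 0.945 and 1.3 CPM in WT against 0.974 and 3.54 CPM in Prx-cKO.

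Bmpr1b, a type I BMP receptor that is enriched in condensing cartilage and binds Gdf5, was at 26.9 and 46.5 CPM in WT against 19.7 and 20.9 CPM in Prx-cKO. WT replicate 2 stood well above WT replicate 1, which was itself nearer to the Prx-cKO libraries than to its own replicate. The log2 fold change was -0.86 (edgeR, SE 0.30, adjusted p = 0.46), and leaving out WT replicate 1 gave -1.23 and WT replicate 2 gave -0.40. The more broadly expressed receptor Bmpr1a was at 203 and 243 CPM in WT against 181 and 172 CPM in Prx-cKO. The ratio of Bmpr1b to Bmpr1a was 0.132 and 0.192 in WT and 0.109 and 0.121 in Prx-cKO, a small separation set by the lower WT library.

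Nkx3-2, a repressor that holds chondrocytes immature and is needed for the jaw joint and the axial skeleton, showed the largest difference. Its counts were 208 and 411 in WT and 31 and 26 in Prx-cKO, or 4.91 and 5.73 CPM against 1.08 and 0.509 CPM. The WT libraries were close to each other, and the Prx-cKO libraries differed by 2.12-fold at these low counts. A share of 14.9% of WT remained, with a log2 fold change of -2.85 (edgeR, SE 0.46, adjusted p = 0.332). Leaving out Prx-cKO replicate 1 gave -3.37 and Prx-cKO replicate 2 gave -2.30.

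Pth1r, the receptor of PTHrP on prehypertrophic chondrocytes and osteoblasts, was the exception. It was at 92.8 and 87.9 CPM in WT against 96.6 and 108 CPM in Prx-cKO, 113% of the WT mean. Both Prx-cKO libraries lay just above both WT libraries, and the gap between the groups was smaller than the spread within either. The log2 fold change was 0.18 (edgeR, SE 0.15, adjusted p = 0.705), and 0.08 when libraries were scaled by their totals alone. Of the genes of the PTHrP and Ihh loop, Pthlh, which encodes the ligand, was at 1.96 and 3.15 CPM in WT against 1.01 and 0.489 CPM in Prx-cKO. Ihh, the hedgehog ligand of prehypertrophic cartilage, was at 1.51 and 2.21 CPM in WT against 0.417 and 0.235 CPM in Prx-cKO. The second receptor gene, Pth2r, stayed under 0.6 CPM. Osteoblasts also make Pth1r. Of 8 tested osteoblast genes of 9 listed, 6 were lower and 2 higher, and the list summed to 244 and 235 CPM in WT and 215 and 190 CPM in Prx-cKO. The 2 higher were Alpl, a bone phosphatase, at 2.69 and 2.61 CPM in WT and 4.56 and 5.66 CPM in Prx-cKO, and Spp1, a bone matrix protein, at 147% of the WT mean. Ibsp, also of bone matrix, was listed at 0 in all 4 libraries. The part of these cells in the Pth1r value was not tested.

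Runx3, a runt-domain factor of maturing chondrocytes and of some sensory neurons and blood cells, was the scarcest member in WT per exon length. It was at 3.19 and 3.48 CPM in WT against 1.81 and 1.39 CPM in Prx-cKO, 47.9% of WT, with no overlap. Its log2 fold change was -1.09 (edgeR, SE 0.36, adjusted p = 0.457). Runx2, its partner in cartilage and the main factor of bone, was at 34.6 and 19.2 CPM in WT against 25.5 and 24.9 CPM in Prx-cKO, so that the groups overlapped. Runx1 was at 6.69 and 11.5 CPM in WT against 5.84 and 5.89 CPM in Prx-cKO. The myeloid and other blood list lay on the other side from Runx3: 11 of its 11 tested genes were higher, and its sum was 60.4 and 60.6 CPM in WT against 134 and 128 CPM in Prx-cKO. The nerve and Schwann cell list had 9 of 11 genes higher, with sums of 112 and 112 against 131 and 142 CPM.

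Erg, an ETS-family factor, was at 16.5 and 19.3 CPM in WT against 9.64 and 8.71 CPM in Prx-cKO, 51.2% of WT, with tight replicates and no overlap. The log2 fold change was -0.97 (edgeR, SE 0.22, adjusted p = 0.40; DESeq2 adjusted p = 0.0455). Endothelial cells also make Erg, and all 12 endothelial genes of the list were higher, none at 0, with a median log2 fold change of 0.52 and a summed level of 232 and 212 CPM in WT against 317 and 305.5 CPM in Prx-cKO. Erg over the endothelial cadherin Cdh5 was 0.475 and 0.52 in WT and 0.196 and 0.18 in Prx-cKO. Per 1000 CPM of the whole endothelial list, a ratio also chosen after the values were seen, Erg was at 71.1 and 90.8 in WT and 30.4 and 28.5 in Prx-cKO. Both ratios were lower in both Prx-cKO libraries. Fli1, the nearest ETS relative of Erg and also endothelial, was at 44.0 and 56.6 CPM in WT against 29.6 and 36.4 CPM in Prx-cKO.

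**Figure D2:**
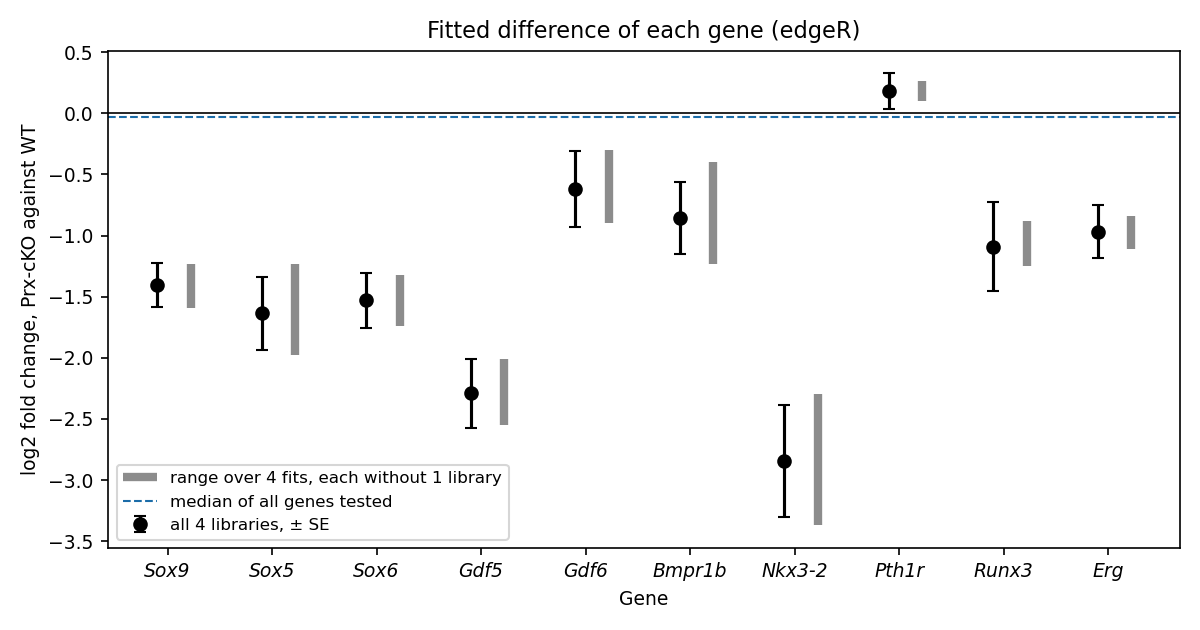
Fitted log2 fold change of Prx-cKO against WT for each of the 10 genes (points, with bars of ± 1 SE from edgeR on all 4 libraries), the range of the 4 fits that each leave out 1 library (grey bars) and the median of all genes tested (dashed line). Nkx3-2 and Gdf5 have the largest differences and Pth1r is the single gene above 0; no grey bar crosses 0.

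The remaining relatives of the members, the paralogs outside the set, did not share one direction. Over the 10 relatives, 6 were lower and 4 higher, with a median log2 fold change of -0.08 whose sign turned in 2 of 10 alternatives. Sox8, the SOXE sister of Sox9, was at 12.8 and 12.1 CPM in WT against 21.1 and 19.7 CPM in Prx-cKO, with a log2 fold change of 0.71 (edgeR, SE 0.19, adjusted p = 0.429). Sox13, another SOXD gene, was at 21.4 and 21.2 CPM in WT against 27.9 and 29.1 CPM in Prx-cKO. Both lay above WT in both libraries, the opposite side from Sox9, Sox5 and Sox6. Sox10, the SOXE gene of the neural crest, overlapped between the groups, from 11.3 to 15.95 CPM in WT against 14.9 to 30.2 CPM in Prx-cKO.

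Levels of different genes were compared per kb of exon. In WT the order was Pth1r (30.9 CPM per kb), Sox9 (29.6), Gdf5 (13.6), Bmpr1b (6.15), Erg (5.17), Nkx3-2 (3.1), Sox6 (2.51), Sox5 (2.17), Gdf6 (2.15) and Runx3 (0.667). Pth1r and Sox9 were not separated by their replicates, nor were Bmpr1b and Erg, Sox6 and Sox5, or Sox5 and Gdf6. In Prx-cKO, Pth1r stood alone at 35 CPM per kb, and Sox9 followed at 11.2. Gdf5 was the third in WT and the fourth in Prx-cKO at 2.79, where it overlapped Erg at 2.65, and Bmpr1b came before both at 3.4. Nkx3-2 was the sixth in WT and the ninth in Prx-cKO, at 0.462 CPM per kb, and overlapped Runx3 at 0.32.

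**Figure D3:**
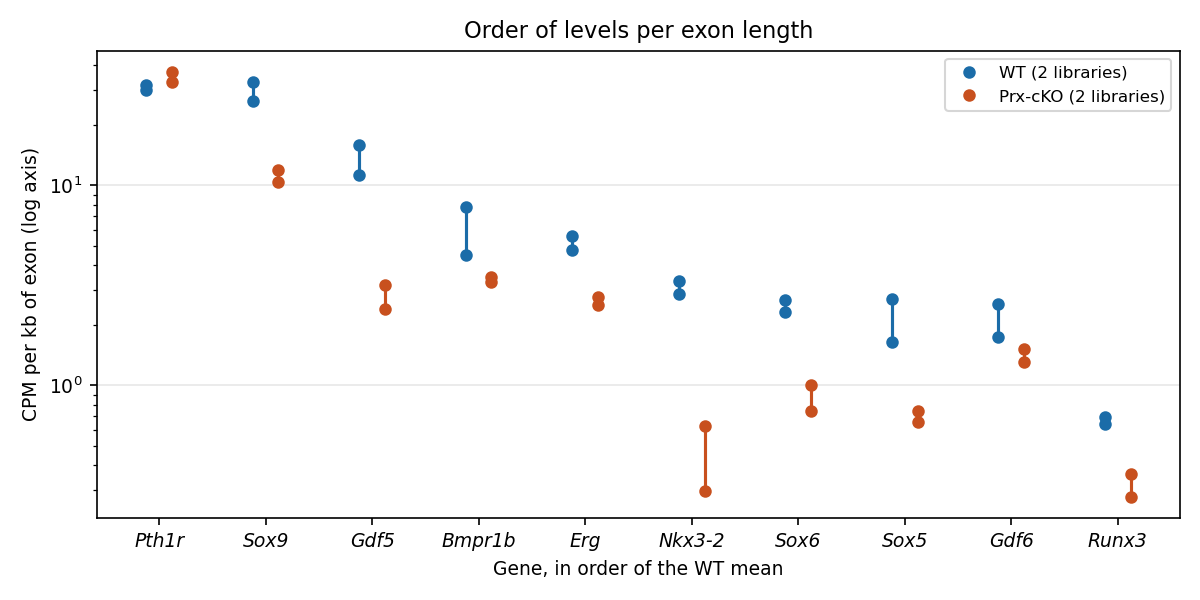
Level of the 10 genes per exon length (CPM per kb, log axis) in order of the WT mean; each point is a library and each line joins the 2 libraries of a group, WT in blue and Prx-cKO in orange. Pth1r and Sox9 overlap in WT and are well apart in Prx-cKO.

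The members were next set beside the genes of their tissue. The cartilage matrix list, mostly products of differentiating chondrocytes, was lower in 18 of 19 tested genes, 14 of them at an unadjusted p under 0.05. Its median log2 fold change was -1.47. It also held genes that do not encode secreted matrix proteins, such as Wwp2 and Trpv4. Acan, the large proteoglycan of cartilage, was at 8.29 and 10.7 CPM in WT against 0.661 and 0.391 CPM in Prx-cKO, 5.54% of WT. Col2a1 was at 489 and 506.5 CPM in WT against 214 and 166 CPM in Prx-cKO, and Col9a1, a collagen of the same fibrils, at 175 and 224 CPM against 75.5 and 68.6 CPM. Among 15 joint interzone genes 10 were lower and 5 higher, with a median of -0.28 (leaving out WT replicate 1 gave -0.67, and Prx-cKO replicate 2 gave -0.155), and the 4 lower at an unadjusted p under 0.05 were Sfrp2, Creb5, Trps1 and Osr2. Creb5, a factor of superficial joint cells, was at 31.2 and 50.1 CPM in WT against 14.0 and 12.3 CPM in Prx-cKO. Of the 15 interzone genes, 0 were higher at that level of p. Both Prx-cKO libraries lay below both WT libraries for 6 of them (21.0% of all genes tested). They lay above for 4 (22.2% of all genes), namely Wnt4, Wnt9a, Chrdl2 and Cd44. Wnt4 was at 114% and Wnt9a at 118.5% of the WT mean.

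The BMP pathway around Gdf5, Gdf6 and Bmpr1b did not differ as a block. Of 6 other ligands 3 were lower and 3 higher. Bmp7, a ligand of the same family, was at 80.3 and 80.2 CPM in WT against 115 and 105 CPM in Prx-cKO, and Bmp2 was at 25.5 and 36.3 CPM against 19.3 and 19.4 CPM. All 5 other receptors were lower, with a median of -0.34 and 0 at an unadjusted p under 0.05. Leaving out WT replicate 1 gave a median of -0.56, and WT replicate 2 one of -0.14. Of 6 antagonists 4 were lower, with a median of -0.45 that was -0.26 without WT replicate 2, led by Bmper at 10.9 and 10.8 CPM in WT against 4.73 and 2.62 CPM in Prx-cKO. Nog, the antagonist that protects the joint, was at 6.71 and 7.57 CPM against 5.74 and 4.13 CPM. The 9 signal transducers and response genes were split, 4 lower and 5 higher, with a median of 0.02. In the PTHrP and Ihh loop 7 of 12 were lower, 3 of them at an unadjusted p under 0.05 (Ihh, Pthlh and the growth-plate receptor Fgfr3), and the median, -0.19, was 0.05 without WT replicate 2.

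**Figure D4:**
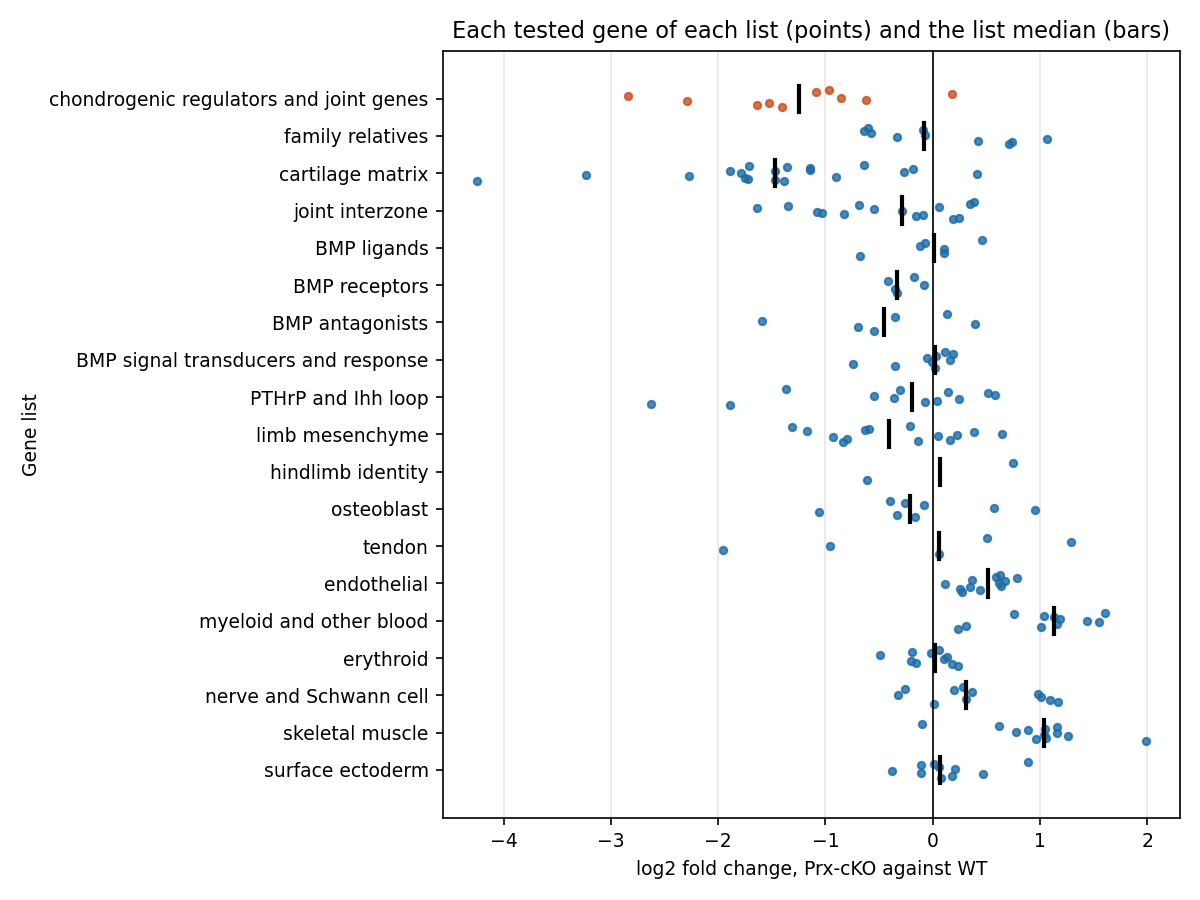
Log2 fold change of Prx-cKO against WT for each tested gene (points) of the 10 described genes (orange) and 18 other lists (blue), with the median of each list as a black bar. Cartilage matrix genes lie near the 10 genes, with medians of -1.47 and -1.25, while the myeloid and skeletal muscle lists have medians of 1.13 and 1.04.

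Limb mesenchyme genes, which mark the cells in which the Cre acts, were lower in 9 of 14 genes, where 52.8% of all genes were lower, with a median of -0.41 that was -0.21 without WT replicate 2. At an unadjusted p under 0.05, 5 were lower and 1, Meis1, was higher. Lhx9 and Hoxd13, transcription factors of the growing limb, were at 44.4% and 40.2% of the WT mean, and Meis1, a factor of the proximal limb, at 156%. The summed level of the list was 2337 and 2627 CPM in WT against 1712 and 1790 CPM in Prx-cKO. The tendon list, for a connective tissue of the Cre lineage, did not share this direction. Of its 5 genes 2 were lower, both at an unadjusted p under 0.05, and 3 were higher, with a median of 0.06. Of the lists of cells outside the Cre lineage, 12 of 12 endothelial, 11 of 11 myeloid and 11 of 12 muscle genes were higher. The erythroid list was split 5 and 5 (median 0.02) and the surface ectoderm list 3 lower and 7 higher (median 0.07), and the signs of both medians changed in some alternatives. Without Prx-cKO replicate 1 the muscle median of 1.04 was 0.45. The part that these shifts between tissues have in the members' values was not tested.

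Ratios, chosen after the values were seen, give each member against its tissue. Per 1000 CPM of the limb mesenchyme list, Sox9 was at 46.8 and 51.6 in WT and 29 and 24 in Prx-cKO, Gdf5 at 11.2 and 14 against 4.33 and 3.11, and Nkx3-2 at 2.1 and 2.18 against 0.63 and 0.284. Sox5, Sox6, Runx3 and Erg were also lower in both Prx-cKO libraries on this scale. Gdf6 and Bmpr1b overlapped, and Pth1r was higher, at 39.7 and 33.5 in WT and 56.4 and 60.3 in Prx-cKO. Per 1000 CPM of the cartilage matrix list, Sox9 and Sox5 overlapped between the genotypes, with Sox9 at 70.3 and 85.5 in WT and 67.9 and 77.5 in Prx-cKO. Sox6 was slightly lower there, at 22.3 and 25 against 20.3 and 19.9. Gdf5 (16.8 and 23.2 against 10.1 and 10) and Nkx3-2 (3.16 and 3.61 against 1.48 and 0.919) remained below WT in both libraries. Pth1r, at 59.7 and 55.5 against 132 and 195, was above WT in both libraries, as were Gdf6, Runx3 and Erg. The members thus differed among themselves on both scales, and the set was not lower as one unit relative to the cartilage matrix list. The sum of that list rested largely on Col2a1 and Wwp2. They gave 489 and 391.5 of 1555 CPM in WT replicate 1, and 166 and 120 of 554 CPM in Prx-cKO replicate 2.

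**Figure D5:**
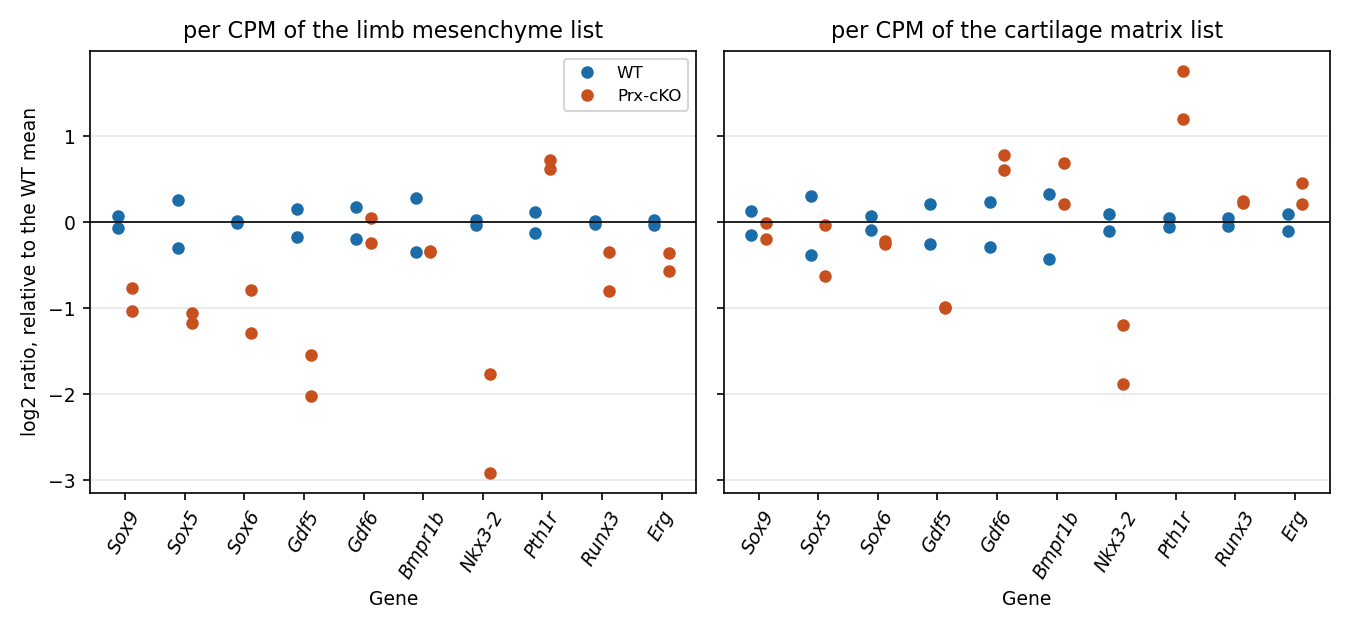
Log2 of each gene's ratio to the summed limb mesenchyme list (left) and to the summed cartilage matrix list (right), relative to the WT mean of that ratio; blue points are the 2 WT and orange points the 2 Prx-cKO libraries. Gdf5 and Nkx3-2 lie below WT in both panels, Sox9 overlaps WT at right, and Pth1r lies above WT in both.

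The genes whose pattern over the 4 libraries was most like that of Sox9 and Gdf5 were taken from 11958 genes outside the lists whose mean was 5 CPM or more, by the root mean square difference of centred log2 CPM. For Sox9 they were Chrdl1 (difference 0.0423), Kcnj2, Caskin1, Rspo3 and Wfikkn2 (0.102). Chrdl1, a secreted BMP antagonist, was at 39.4 and 51.0 CPM in WT against 17.7 and 16.5 CPM in Prx-cKO. For Gdf5 they were Pax9 (0.0904), Rflna, Cpne1, Cacna1d and Id4 (0.313), so that only Pax9 was as near as the Sox9 genes. Pax9, a paired-box factor of the anterior limb and the skeleton, was at 7.18 and 11.9 CPM in WT against 2.19 and 1.53 CPM in Prx-cKO. Cpne1 lies in the same stretch of chromosome 2 as Gdf5, 126475 bases away. It was at 118 and 105 CPM in WT against 25.3 and 26.1 CPM in Prx-cKO. The overlapping gene Gm28036 lay on the other side, at 3.31 and 12.54 CPM in WT against 81.8 and 87.5 CPM in Prx-cKO. Their sum was 121 and 117 CPM in WT against 107 and 114 CPM in Prx-cKO, so the Cpne1 value is uncertain, since reads of the 2 genes could have been divided between them.

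In the 8 osteoclast culture libraries, R40D3 and R0D3 together, the members were scarce or not detected. Gdf5 had 0 counts in all 8 libraries, Gdf6 and Nkx3-2 had at most 1 count, Sox6 at most 2, and Sox5 and Bmpr1b at most 4. Runx3, the member best known in blood cells, had 31 to 63 counts (1.88 to 3.67 CPM). Its forelimb levels were close to this, from 1.39 to 3.48 CPM, although the 2 tissues were normalised separately. Pth1r ran from 0.546 to 2.02 CPM, Sox9 from 0.303 to 1.55 CPM and Erg from 0.183 to 0.575 CPM. No contrast between the cultures was tested for these genes.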

How the data were processed

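The authors deposited raw read counts per Ensembl gene for 12 libraries in 6 groups of 2; the 4 forelimb libraries were tested and the 8 culture libraries gave levels only. Total RNA was extracted with TRIzol and an mRNA kit was used, per the labels' protocols. FastQC 0.11.2, Trimmomatic 0.36, HISAT2 2.1.0, DESeq2 1.12.4 and the build GRCm38 are named, without roles, per the submitters' processing notes. The counting tool, annotation and use of strand are not given in the sources used here, so reads of overlapping genes may have been divided. Exonic lengths and coordinates came from GENCODE M21 (GRCm38).

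Counts were filtered with filterByExpr, scaled by TMM and fitted with edgeR 4.0.16 (quasi-likelihood, legacy = FALSE), two-sided, with Benjamini-Hochberg adjustment over 19987 genes. The SE was derived from the F statistic and the log2 fold change. DESeq2 1.42.0 in R 4.3.3, other scalings, no filter, legacy = TRUE, a replicate block and leaving out each library were alternatives. The fit was tested on simulated data. CPM used the scaled library sizes. Likeness used log2 CPM with a prior count of 2. Whether a library came from a single embryo or a pool is not stated. The libraries of each genotype differed in sex type by Xist and Ddx3y counts, so they were not repeats of the same RNA sample. The p-values measure the spread between these libraries, which includes sex and may be technical in part.

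The members and lists were chosen with earlier results of these data known. The text names all members, Impdh2, the members' paralogs (1 of them is not reported here), up to 4 genes per list with the smallest unadjusted p among those of at least 1 CPM in a group, and the 5 genes most like Sox9 and Gdf5. Ibsp, Spp1, Meis1, Gm28036, Wwp2, Trpv4, the higher joint interzone genes, the neighbours of Sox9 and Gdf5, and the ratios were chosen after their values were seen. The lists covered paralogs, cartilage matrix, joint interzone, BMP ligands, receptors, antagonists and signal transducers, the PTHrP and Ihh loop, limb mesenchyme, hindlimb identity, osteoblast, tendon, endothelial, myeloid, erythroid, nerve, skeletal muscle and surface ectoderm genes.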

Additional observations from a re-analysis of the deposited data

Results flagged for a closer look

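In the osteoclast cultures, which entered no comparison, the mean Erg level of the LysM-cKO R0D3 libraries was 0.351 CPM, from 0.46 and 0.243 CPM. It stands out because it was above the level in the matching WT libraries, 0.233 and 0.187 CPM. In the R40D3 cultures the order was not the same, with Erg at 0.264 and 0.246 CPM in LysM-cKO and 0.575 and 0.183 CPM in WT. The R0D3 values rest on 3 to 8 counts per library, and the difference was not tested.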

How the results depend on the processing

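Over 10 alternatives each, none of the 10 members changed the sign of its log2 fold change. The number of genes called, 0 in edgeR with 2095 at an unadjusted p under 0.05, was 301 with DESeq2, and from 0 to 603 when a library was left out: 603 without WT replicate 1, 104 without WT replicate 2 and 0 without either Prx-cKO library. Members called were 6, 2, 0 and 0 in these fits; a lone library was assumed to vary like the other group. The number of members lower at an unadjusted p under 0.05 was 8 and ran from 5 to 9, the lowest without Prx-cKO replicate 2. With a replicate block edgeR called 0 genes and 8 members were lower at that level. Replicate numbers are only shared numbers, and same-numbered libraries were of opposite sex type. Their deviations from the group means had r = 0.261 across genes. With 2 libraries per group the crossed pairing can only mirror this (r = -0.261), so the 2 pairs are not separate evidence. Scaling by library size alone moved the median log2 fold change of all genes from -0.03 to -0.13. Of the 18 other list medians, 10 kept their sign in all 10 alternatives and 8 changed it: paralogs, BMP ligands, BMP signal transducers, the PTHrP and Ihh loop, hindlimb identity, tendon, erythroid and surface ectoderm. Their depth limits Nkx3-2 and Runx3 most, with 26 to 71 counts in Prx-cKO.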

Other observations

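Neighbours of Sox9 and Gdf5, chosen after their values were seen, gave further values. BC006965, a processed transcript on the strand opposite to Sox9 and 248 bases away from it, was at 9.95 and 7.17 CPM in WT against 2.5 and 1.1 CPM in Prx-cKO, with a log2 fold change of -2.32 (edgeR, SE 0.47, adjusted p = 0.379). Kcnj2, a potassium channel gene on the same chromosome and 1705403 bases from Sox9, was at 20.5 and 24.0 CPM in WT against 9.81 and 8.36 CPM in Prx-cKO. Of 18 other genes tested within 2000 kb of Sox9, 2 were lower (BC006965 and Kcnj2) and 1 higher at an unadjusted p under 0.05, where 4.61% of all genes were lower and 5.87% higher. Within 250 kb of Gdf5, 3 of 20 other genes were lower and 1 higher. The 3 were Gm15557, which shares exonic bases with Gdf5, Cep250 and Cpne1, and the 1 was Gm28036, which overlaps Cpne1. Cep250, 11091 bases from Gdf5, was at 106 and 102 CPM in WT against 67.2 and 54.4 CPM in Prx-cKO.

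Among genes of tissues outside the Cre lineage, Pax3, a factor of migrating muscle precursors, was at 3.1 and 3.16 CPM in WT against 11.6 and 13.2 CPM in Prx-cKO. The macrophage complement gene C1qb was at 9.17 and 8.48 CPM in WT against 24.9 and 26.8 CPM in Prx-cKO. Fgf8, the growth factor of the apical ridge that overlies the limb mesenchyme, was at 14.1 and 13.1 CPM in WT against 23.8 and 26.6 CPM in Prx-cKO, and was the only one of 10 surface ectoderm genes higher at an unadjusted p under 0.05. The ectoderm list as a whole had 3 genes lower and 7 higher, with a median log2 fold change of 0.07. Pax3, C1qb and Fgf8 had both Prx-cKO libraries above both WT libraries, and none of the 3 was called by edgeR.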
